A study of Mus musculus with 9 samples.

Results

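Transcripts of the 8 core genes of the mTOR pathway were followed in RNA from hippocampal synaptoneurosomes, a preparation that concentrates resealed nerve endings and their postsynaptic partners. The genes were Mtor, Rptor, Rictor, Tsc1, Tsc2, Rheb, Rps6kb1 and Eif4ebp2. They were chosen by name, by matching the Ensembl identifiers of the count table, without the version, to symbols. All 8 were found among the 22255 genes listed and all 8 were among the 14512 genes with enough counts to be tested. The 9 samples came from Fmr1 KO mice on a C57Bl/6J background, a model of fragile X syndrome, so the vehicle animals carry the knockout too. Of these, 4 samples (A, B, C and E) came from mice given AM6545 sub-chronically and 5 (A to E) from mice given vehicle. AM6545 blocks the CB1 cannabinoid receptor and enters the brain poorly. Age, dose, duration and whether a sample pools animals are not given in the labels, and no sample from a mouse with intact Fmr1 is analysed here. Nothing in the labels says that each sample is a separate animal, so p-values measure the spread between these samples.

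The mTOR kinase works in a pair of protein complexes. With Raptor, the product of Rptor, it forms mTORC1, which promotes protein synthesis, and with Rictor it forms mTORC2, which phosphorylates AKT. The small GTPase Rheb switches mTORC1 on, and the tuberous sclerosis proteins TSC1 and TSC2 switch Rheb off. Active mTORC1 phosphorylates the S6 kinase encoded by Rps6kb1 and the translation repressor 4E-BP2 encoded by Eif4ebp2, which is the main member of its family in brain. FMRP, the protein missing in these mice, represses translation at synapses, and raised mTORC1 signalling has been described in the hippocampus of Fmr1 knockout mice. The comparison of AM6545 with vehicle asks whether the transcripts of this pathway differed at the synapse after treatment. Phosphorylation, by which the pathway is mostly regulated, is not measured by RNA counts.

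Total counts ran from 17628922 to 27263393 per sample. Fmr1 itself was counted in every sample, at 10.1 ± 0.754 CPM with AM6545 (SD, n = 4) and 11.7 ± 1.18 CPM with vehicle (SD, n = 5), where CPM is the count scaled to library size with TMM factors. Which part of Fmr1 was deleted is not given in the labels, so these counts do not check the genotype. The 12 markers of excitatory neurons and synapses, which fit the labelled tissue, were counted in every sample, with Snap25 the highest at 3847 CPM. Their sum ran from 8273 to 9239 CPM in AM6545 samples and from 7759 to 9900 CPM in vehicle samples. Glial RNA was also present in every sample: the sum of 8 oligodendrocyte markers, led by Mbp, ran from 13253 to 19010.3 CPM and from 10903 to 22807 CPM in AM6545 and vehicle samples. The sum of 8 choroid plexus markers, led by Ttr, ran from 60.9 to 937 CPM with AM6545 and from 47.99 to 4344 CPM with vehicle, and of these markers Aqp1 was at 0 in at least 1 sample. All 8 choroid plexus and all 8 ependymal markers had a smaller mean with AM6545, with median log2 fold changes of -1.39 and -0.83, and 0 of them passed the adjusted test. At an unadjusted p under 0.05 by edgeR there were 1 of the 8 choroid plexus (12.5%) and 5 of the 8 ependymal markers (62.5%). The share over all genes was 7.21%, or 4.18% counting only those with a smaller mean. The part of these markers in the values below was not tested.

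At the level of the whole pathway core, no gene passed the test. By edgeR's quasi-likelihood test with Benjamini-Hochberg adjustment over all genes tested, 0 of the 8 core genes had an adjusted p under 0.05, against 0% of all 14512 genes. The smallest adjusted p of a core gene was 0.653. DESeq2 and limma-voom also called 0 of the 8. At an unadjusted p under 0.05 there was 1 core gene by edgeR, Tsc2, against 7.21% of all genes (3.03% with a greater and 4.18% with a smaller mean). There were 2 by DESeq2, Tsc2 and Rictor, and 1 by limma-voom, Tsc2. Over all genes the numbers were 1047 by edgeR, 1121 by DESeq2 and 870 by limma-voom. The CPM ranges of the groups overlapped for every core gene, while 1.45% of all genes had ranges that did not overlap. The mean level was greater in AM6545 samples for 6 core genes and smaller for 2, and the median log2 fold change was 0.14, against -0.01 over all genes. The 12 excitatory neuron and synapse markers had a like split, with a greater mean for 9, a smaller mean for 3 and a median of 0.14, and their part in the core's values was not tested. With each sample's trend of counts with transcript length removed, the split of the core was 5 to 3.

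**Figure D1:**
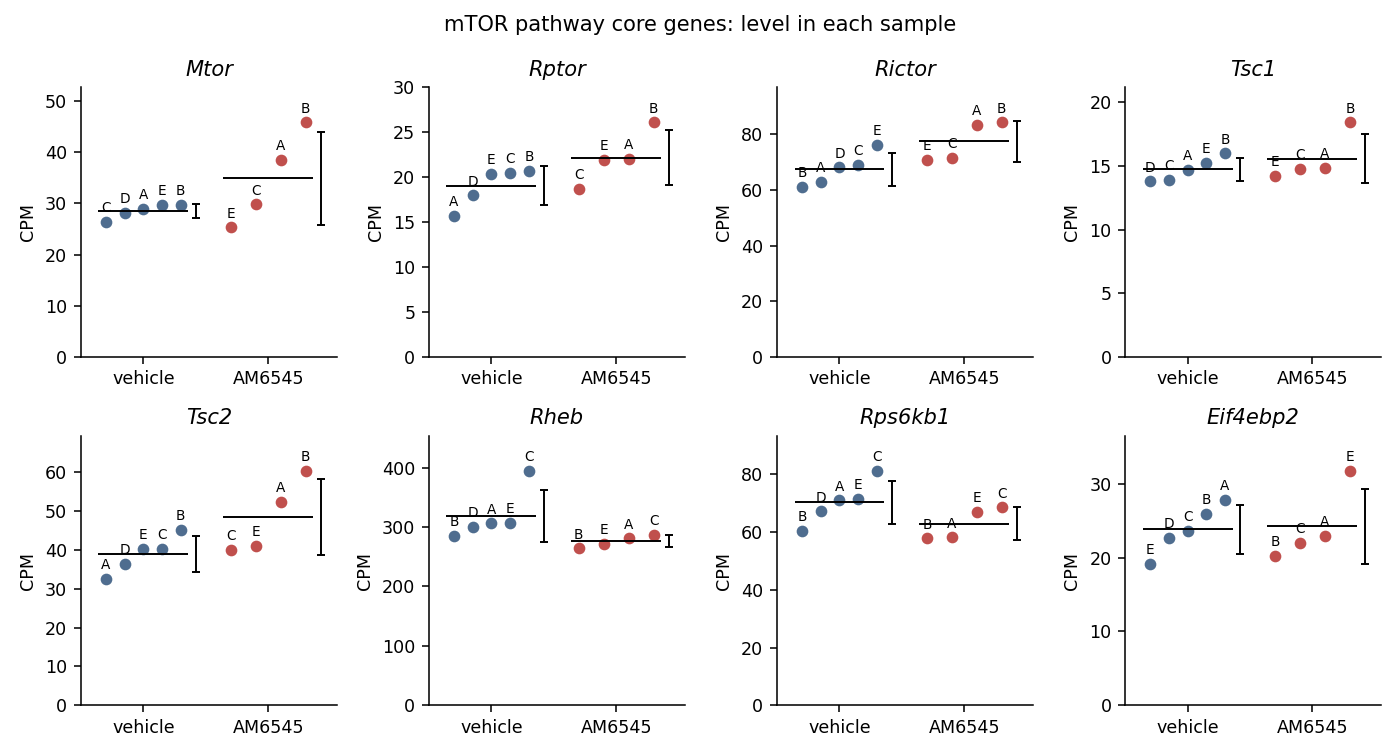
Level of each core gene in CPM (vertical axes, from 0), with 1 point per sample, letters naming the sample, horizontal lines at the group mean and bars of ±1 SD. The groups overlap in every panel. Mtor and Tsc2 are highest in AM6545 B, followed by AM6545 A, and Rheb is highest in vehicle C at 394 CPM.

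The kinase gene Mtor (ENSMUSG00000028991.16) was at 38.6, 45.9, 29.8 and 25.3 CPM in AM6545 A, B, C and E. In vehicle A to E it was at 28.9, 29.8, 26.4, 28.2 and 29.7 CPM. The vehicle samples thus lay close together, while the treated samples included both the lowest and the highest values of the 9. Group means were 34.9 ± 9.15 CPM (SD, n = 4) and 28.6 ± 1.41 CPM (SD, n = 5). The log2 fold change was 0.29 (95% interval -0.02 to 0.59, edgeR adjusted p = 0.653), that is 1.22-fold, with an interval from 0.985 to 1.51. It was 0.13 without AM6545 B and 0.41 without AM6545 E.

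Rptor (ENSMUSG00000025583.16), which encodes the scaffold that brings substrates to mTORC1, was at 22.1, 26.1, 18.7 and 21.9 CPM in AM6545 A, B, C and E. It was at 15.7, 20.7, 20.5, 17.97 and 20.3 CPM in vehicle A to E. Of the treated samples 3 lay above every vehicle sample, and AM6545 C lay among them. AM6545 against vehicle gave a log2 fold change of 0.22 (95% interval -0.04 to 0.47, edgeR adjusted p = 0.653), which was 0.13 without AM6545 B.

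Rictor (ENSMUSG00000050310.10), the defining subunit of mTORC2, was at 83.4, 84.3, 71.5 and 70.8 CPM in AM6545 A, B, C and E and at 62.9, 61.2, 69.1, 68.1 and 76.3 CPM in vehicle A to E. Vehicle E was the only vehicle sample above the lowest treated sample. Means were 77.5 ± 7.37 CPM (SD, n = 4) and 67.5 ± 5.95 CPM (SD, n = 5), for a log2 fold change of 0.20 (95% interval -0.01 to 0.41, edgeR adjusted p = 0.653). Over the 9 fits that each left out a sample it stayed between 0.16 and 0.25.

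Of the tuberous sclerosis genes, Tsc2 (ENSMUSG00000002496.11) had the largest fold change of the core. TSC2 is the part of the complex that makes Rheb hydrolyse GTP. Tsc2 was at 52.4, 60.3, 40.0 and 41.0 CPM in AM6545 A, B, C and E and at 32.6, 45.2, 40.3, 36.5 and 40.2 CPM in vehicle A to E. AM6545 A and B lay above all vehicle samples, AM6545 C and E lay within the vehicle range, and vehicle A was the lowest of the 9. Means were 48.4 ± 9.71 CPM (SD, n = 4) and 39.0 ± 4.71 CPM (SD, n = 5). The log2 fold change was 0.31 (95% interval 0.03 to 0.60), or 1.24-fold, with an unadjusted p of 0.0339 and an adjusted p of 0.653 by edgeR, so it did not pass. It was 0.19 without AM6545 B and 0.28 with the length trend removed.

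Part of the Tsc2 signal is uncertain. In GENCODE M21, 693 of the 9620 exonic bases of Tsc2 overlap Pkd1 on the opposite strand, and whether strand was used in counting is not given in the sources used here. Stretches of Tsc2 transcripts also match those of other genes: in all, 21 genes of the table, Pkd1 among them, share at least 100 bases with Tsc2 at 95% identity or more. Pkd1 (ENSMUSG00000032855.7) was at 23.4 ± 4.68 CPM with AM6545 (SD, n = 4) and 21.4 ± 3.54 CPM with vehicle (SD, n = 5), for a log2 fold change of 0.13 (edgeR adjusted p = 0.803). The part of shared reads in the Tsc2 value was not tested.

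Tsc1 (ENSMUSG00000026812.17), whose product stabilises TSC2, was at 14.8, 18.4, 14.8 and 14.2 CPM in AM6545 A, B, C and E. In vehicle A to E it was at 14.7, 15.99, 13.9, 13.8 and 15.3 CPM. AM6545 B was the highest of the 9, and the other treated samples lay within the vehicle range. Its log2 fold change was 0.08 (95% interval -0.16 to 0.31, edgeR adjusted p = 0.843), and it turned to -0.01 without AM6545 B.

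Rheb (ENSMUSG00000028945.10), the activator of mTORC1, had a smaller mean after AM6545. Its levels were 281, 264, 287 and 272 CPM in AM6545 A, B, C and E and 306, 285, 394, 299.8 and 307 CPM in vehicle A to E. Vehicle B alone lay within the treated range, and vehicle C lay far above the rest. Means were 276 ± 9.93 CPM (SD, n = 4) and 318 ± 43.4 CPM (SD, n = 5), for a log2 fold change of -0.21 (95% interval -0.44 to 0.02, edgeR adjusted p = 0.653). Without vehicle C it was -0.12. In synaptoneurosome RNA such as this, a lower level of the transcript and a different mix of material in the preparation cannot be told apart.

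Of the mTORC1 substrates, Rps6kb1 (ENSMUSG00000020516.16) followed Rheb in which samples were high. Its levels were 58.1, 57.7, 68.5 and 66.9 CPM in AM6545 A, B, C and E and 70.9, 60.4, 81.1, 67.1 and 71.5 CPM in vehicle A to E. Vehicle C was again the highest, and AM6545 A and B were the lowest. The log2 fold change was -0.16 (95% interval -0.38 to 0.06, edgeR adjusted p = 0.676), and it was -0.10 without vehicle C. In M21, 155 of its 8658 exonic bases overlap Rnft1 on the opposite strand, so a small part of its count is uncertain.

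Eif4ebp2 (ENSMUSG00000020091.16), the gene of the translation repressor, had nearly equal means. It was at 23.0, 20.2, 22.0 and 31.7 CPM in AM6545 A, B, C and E and at 27.8, 26.0, 23.6, 22.7 and 19.1 CPM in vehicle A to E. AM6545 E was the highest of the 9, and the other treated samples lay within the vehicle range. The log2 fold change was 0.03 (95% interval -0.28 to 0.33, edgeR adjusted p = 0.966), so differences of up to 1.26-fold upward and down to 0.824 of the vehicle level remain within the interval. It was -0.13 without AM6545 E.

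**Figure D2:**
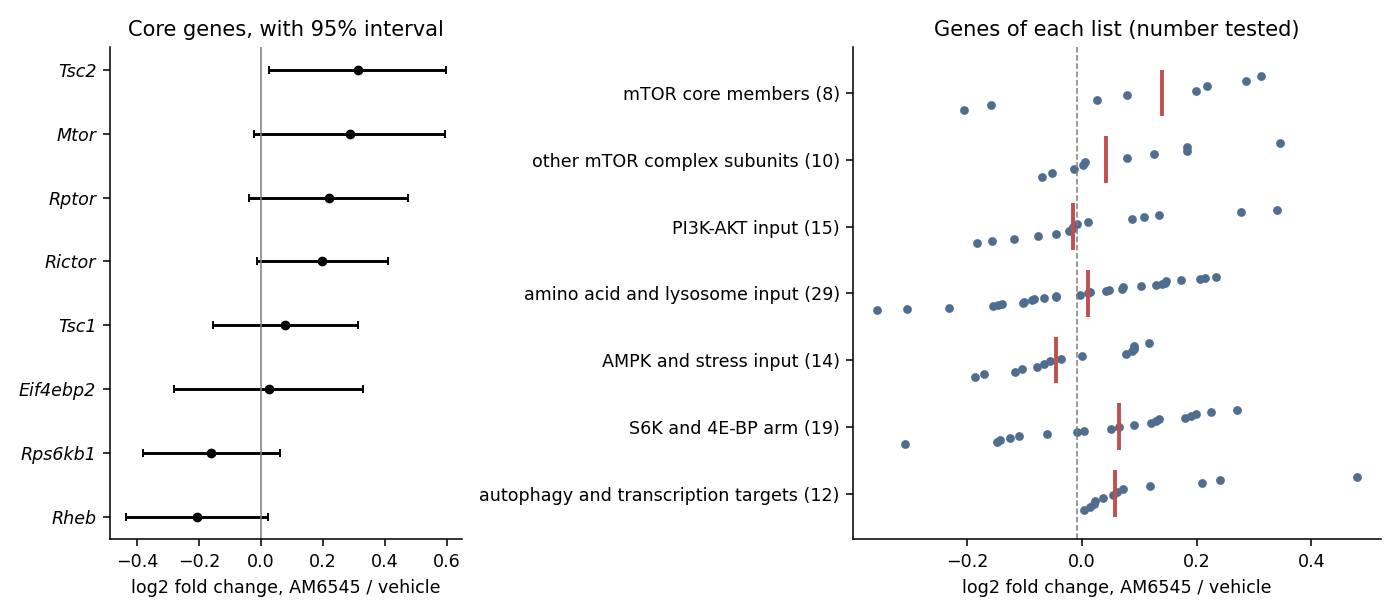
Left, log2 fold change of AM6545 against vehicle for each core gene with its 95% interval, which includes 0 for all but Tsc2. Right, log2 fold changes of the tested genes of the core and of 6 wider pathway lists (points), with the median of each list (red line) and of all genes (dashed line, -0.01).

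The core genes did not vary together as 1 block. Their profiles were compared by the root mean square difference over the 9 samples between log2 CPM values centred on each gene's mean. Among the 28 pairs the closest were Rheb and Rps6kb1, at 0.087 log2 units, followed by Rptor and Tsc2, at 0.11 log2 units. The farthest were Mtor and Eif4ebp2, at 0.41 log2 units. For comparison, the median difference between Mtor and all genes tested was 0.33 log2 units, and that between Rheb and all genes was 0.25 log2 units. This median was 0.32 for Tsc2, 0.28 for Rptor, 0.25 for Rictor and 0.23 log2 units for Tsc1. Mtor, Rptor, Rictor, Tsc1 and Tsc2 were nearer to each other (0.11 to 0.21 log2 units) than any of them was to Rheb, Rps6kb1 or Eif4ebp2 (0.24 to 0.41 log2 units). Tsc1, at 0.15 to 0.18 log2 units from the rest of these, was not far under its median to all genes.

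The sample in which the pattern stood out most was AM6545 B. It held the highest value of the 9 samples for 5 of 8 core genes, Mtor, Rptor, Rictor, Tsc1 and Tsc2, and the lowest for Rheb and Rps6kb1. Over all genes tested AM6545 B was the highest sample for 17.4% and the lowest for 14.8%. Vehicle C held the highest value for Rheb and Rps6kb1, and it was the highest sample for 19.7% of all genes. In AM6545 B, Mtor lay 0.57 log2 units above its mean over the 9 samples and Rheb 0.17 below (-0.17). Vehicle A had the lowest Rptor and Tsc2 values, at -0.37 and -0.38 log2 units from their means. Libraries differed in how counts ran with transcript length: the slope of log2 CPM per doubling of length was -0.06 in vehicle A and 0.07 in AM6545 E, with the other samples between. With that trend removed the log2 fold changes of the core genes ran from -0.20 for Rps6kb1 to 0.28 for Tsc2.

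**Figure D3:**
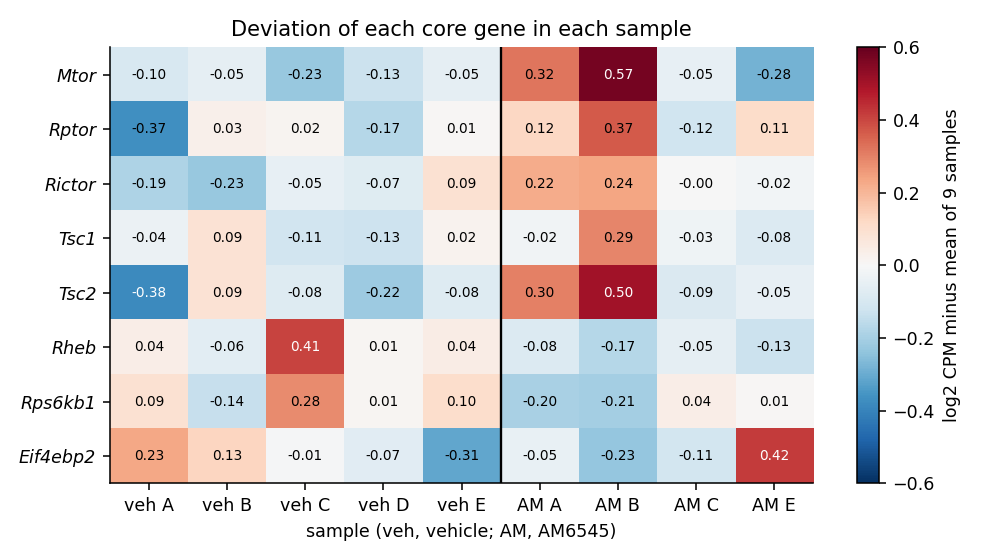
Deviation of log2 CPM from the mean of the 9 samples for each core gene (rows) in each sample (columns), red above and blue below the mean, with the value in each cell. Mtor, Rptor, Rictor, Tsc1 and Tsc2 are all above their means in AM6545 B, where Rheb and Rps6kb1 are below theirs.

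**Figure D4:**
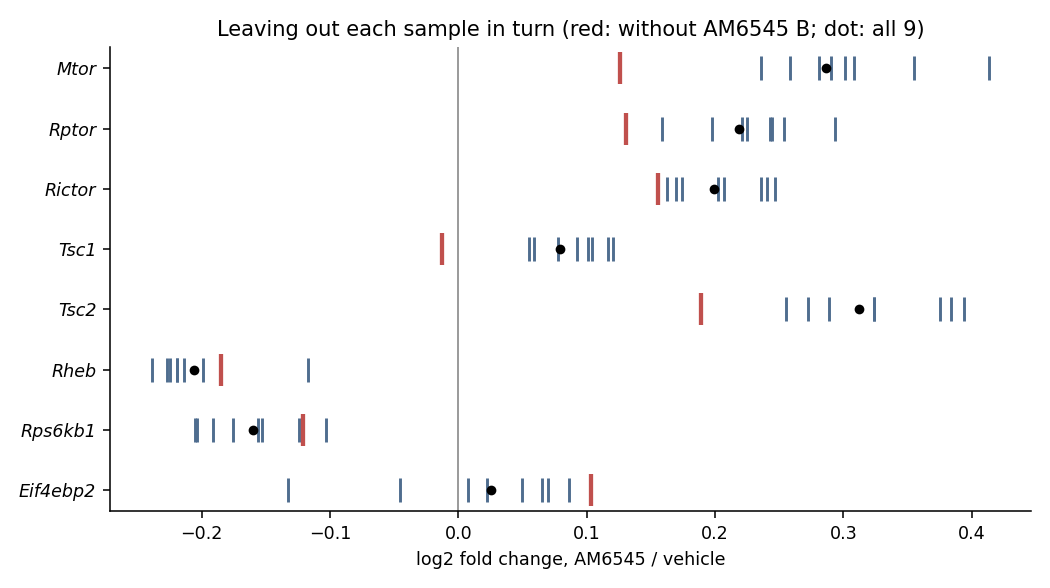
Log2 fold change of each core gene with all 9 samples (dots) and with each sample left out in turn (bars, red without AM6545 B). Mtor moves between 0.13 and 0.41, and bars lie on both sides of 0 for Tsc1 and Eif4ebp2 alone.

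Outside the core, the genes whose profiles over the 9 samples lay nearest to Mtor were Pi4ka, a phosphatidylinositol kinase gene (0.055 log2 units), Unc13a, a synaptic vesicle priming gene (0.071), and Irs2, an insulin receptor substrate gene (0.073). The gene nearest to Rptor was Plekha6, that nearest to Rictor was Mn1 and that nearest to Tsc1 was Spsb3, at 0.063, 0.069 and 0.053 log2 units. Myh10, a non-muscle myosin gene, was nearest to Tsc2, at 0.051 log2 units, and Folh1 was nearest to Eif4ebp2, at 0.057 log2 units. Arl1, a small GTPase gene of the Golgi, was nearest to Rheb (0.038), and Pno1, a ribosome assembly gene, was nearest to Rps6kb1 (0.031). These are the smallest of 14512 differences over 9 samples and are given as a description.

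Ratios within a sample do not depend on the scaling between libraries. The log2 ratio of Rptor to Rictor counts, which sets the mTORC1 subunit against that of mTORC2, was -1.81 ± 0.14 with AM6545 (SD, n = 4) and -1.83 ± 0.17 with vehicle (SD, n = 5). The group means differed by less than the spread between samples. The log2 ratio of Rheb to Mtor was 2.86, 2.53, 3.27 and 3.43 in AM6545 A, B, C and E and 3.41, 3.26, 3.90, 3.41 and 3.37 in vehicle A to E. AM6545 A and B lay below all vehicle samples, while AM6545 C and E lay within their range. The group means differed by -0.45, which was -0.28 without AM6545 B and -0.34 without vehicle C. The log2 ratio of Tsc1 to Tsc2 was -1.62 ± 0.17 (SD, n = 4) and -1.40 ± 0.15 (SD, n = 5), and that of Eif4ebp2 to Rps6kb1 was -1.39 ± 0.24 (SD, n = 4) and -1.56 ± 0.29 (SD, n = 5). The groups overlapped in all 4 ratios.

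**Figure D5:**
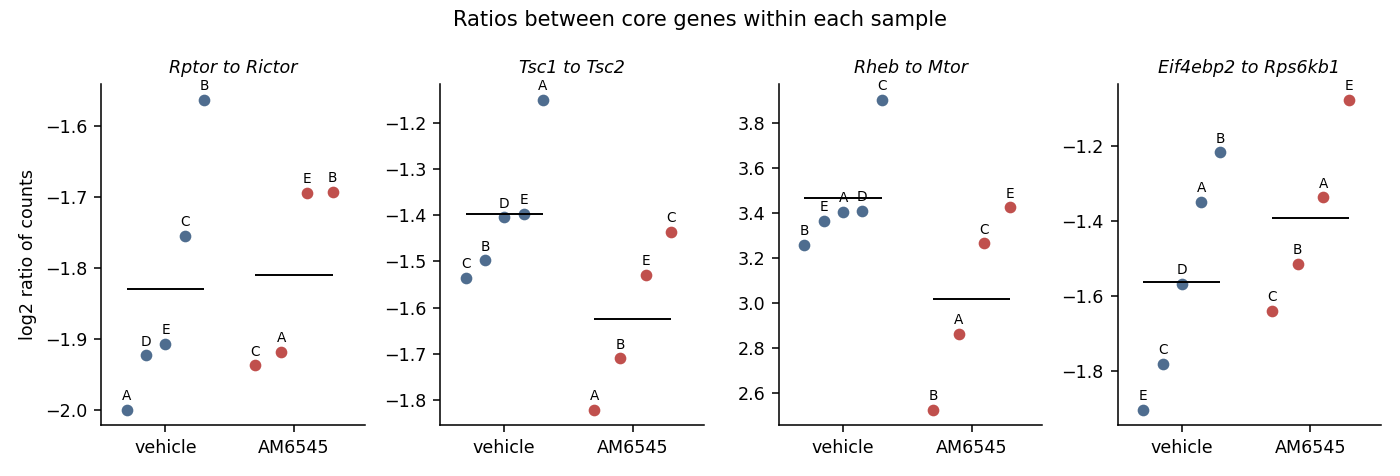
Log2 ratio of the counts of gene pairs within each sample (vertical axes, which do not start at 0), with letters naming the sample and lines at the group mean. Rheb to Mtor is lowest in AM6545 B and A and highest in vehicle C, and the groups overlap in each panel.

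Levels of different genes were compared per kilobase of transcript, with the median length of a gene's protein-coding transcripts in M21. Rheb was the most abundant of the core, at 168 ± 21.5 CPM per kb (SD, n = 9), above 95.3% of the genes tested. Rps6kb1 followed at 20.6 ± 2.30 CPM per kb (SD, n = 9). Tsc2, Rictor, Eif4ebp2, Mtor and Rptor came next, at 7.93, 7.73, 6.67, 6.56 and 5.75 CPM per kb. Within this run each gene overlapped the next in range, while the ranges of Rps6kb1 and Tsc2 did not overlap. Tsc1 was the least abundant, at 1.97 ± 0.185 CPM per kb (SD, n = 9), below every sample's value of the other genes. The transcript of the activator Rheb was thus more abundant per length than that of the kinase in 9 of 9 samples. With the longest protein-coding transcript instead, Mtor was at 3.67, Rptor at 3.10 and Rps6kb1 at 12.1 CPM per kb. The order was then Rheb, Rps6kb1, Rictor, Tsc2, Eif4ebp2, Mtor, Rptor and Tsc1, and the ranges of Rptor and Tsc1 overlapped.

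The close relatives of core genes gave the following levels. Eif4ebp1 (ENSMUSG00000031490.7), which encodes 4E-BP1, was at 3.30 ± 0.722 CPM with AM6545 (SD, n = 4) and 4.12 ± 1.01 CPM with vehicle (SD, n = 5), for a log2 fold change of -0.31 (edgeR adjusted p = 0.693), which was -0.20 without vehicle C and -0.46 without AM6545 B. Per kilobase it was at 1.88 CPM, under the 6.67 CPM per kb of Eif4ebp2, with ranges that did not overlap. Eif4ebp3 had at most 11 counts in a sample and was not tested. Rps6kb2, the second S6 kinase gene, was at 14.0 ± 1.37 CPM (SD, n = 4) and 13.6 ± 0.889 CPM (SD, n = 5), and its log2 fold change was 0.05. Rhebl1, the relative of Rheb, was at 5.67 ± 0.806 CPM (SD, n = 4) and 5.67 ± 0.679 CPM (SD, n = 5), and its log2 fold change was 0.0011.

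The wider pathway was read from 6 lists of 100 genes in all, of which 99 were tested. By edgeR's quasi-likelihood test 0 of these passed, and 7 had an unadjusted p under 0.05, or 7.07% against 7.21% of all genes. Of these 7, 5 had a greater and 2 a smaller mean after AM6545. The count changed when a single sample was left out: it was 2 without AM6545 B (Lamtor5 and Ambra1), 3 without vehicle A, 4 without vehicle D and 17 without AM6545 E. Over all genes the number moved in the same directions, from 1047 with all samples to 642, 496, 866 and 1848 in these fits. The list medians ran from -0.05 to 0.06 log2 units, close to the -0.01 of all genes.

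Among the 10 other subunits and partners of the complexes, 0 had an unadjusted p under 0.05. The smallest p was that of Telo2, whose product helps assemble mTOR complexes, with a log2 fold change of 0.34 (edgeR adjusted p = 0.653). Telo2 was at 21.8, 26.4, 17.0 and 15.7 CPM in AM6545 A, B, C and E and between 11.6 and 18.6 CPM in vehicle samples, so that, as for Mtor and Tsc2, AM6545 A and B were the highest. Without AM6545 B its log2 fold change was 0.19.

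On the growth factor side, 15 genes of the PI3K and AKT branch were tested, 6 with a greater and 9 with a smaller mean. An unadjusted p under 0.05 by edgeR was reached by 2 of them, or 13.3% against 7.21% of all genes. Irs2 (ENSMUSG00000038894.8) was at 67.7, 82.7, 60.0 and 48.4 CPM in AM6545 A, B, C and E, while all vehicle samples lay between 50.01 and 52.2 CPM. Its log2 fold change was 0.34 (edgeR adjusted p = 0.653), and AM6545 E lay below every vehicle sample. Without AM6545 B it was 0.20, with an unadjusted p of 0.0956 by edgeR, and without AM6545 E it was 0.46. Pik3r2 (ENSMUSG00000031834.16), a regulatory subunit of PI3K, was at 139 ± 13.0 CPM (SD, n = 4) and 115 ± 13.5 CPM (SD, n = 5), for a log2 fold change of 0.28 (edgeR adjusted p = 0.653). Without vehicle A, the lowest sample, it was 0.21.

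The amino acid branch acts on mTORC1 at the lysosome through the Rag GTPases and the Ragulator scaffold. Of its 29 genes, 15 had a greater and 14 a smaller mean. The 2 with an unadjusted p under 0.05 by edgeR, 6.9% against 7.21% of all genes, were both Ragulator subunits. Lamtor5 (ENSMUSG00000087260.6) was at 49.8, 47.4, 52.9 and 52.0 CPM in AM6545 A, B, C and E and at 78.6, 53.1, 78.0, 58.1 and 56.3 CPM in vehicle A to E. Every treated sample lay below every vehicle sample, though AM6545 C and vehicle B nearly met, and its log2 fold change was -0.36 (edgeR adjusted p = 0.653). The groups did not overlap for 1 of the 99 wider pathway genes, this one, against 1.45% of all genes. Lamtor2 (ENSMUSG00000028062.16) was at 32.6 ± 2.85 CPM (SD, n = 4) and 40.4 ± 7.95 CPM (SD, n = 5), for a log2 fold change of -0.31 (edgeR adjusted p = 0.653), which was -0.20 without vehicle A and -0.20 with the length trend removed.

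The 14 genes of the AMPK and stress branch, which restrains mTORC1 when energy is low, had 0 at an unadjusted p under 0.05. The smallest p was that of Ddit4l, a stress-induced inhibitor of mTORC1, at 19.2 ± 3.57 CPM (SD, n = 4) and 21.7 ± 3.52 CPM (SD, n = 5), for a log2 fold change of -0.17 (edgeR adjusted p = 0.740). It was -0.06 without AM6545 C and -0.10 without vehicle C.

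In the translation arm below S6K and 4E-BP, 19 genes were tested, 12 with a greater and 7 with a smaller mean. Cyfip1 (ENSMUSG00000030447.16) encodes a protein that binds both FMRP and the cap-binding factor eIF4E. It was at 148, 161, 140.3 and 113 CPM in AM6545 A, B, C and E and at 102, 132, 109, 116 and 122 CPM in vehicle A to E, a log2 fold change of 0.27 (edgeR adjusted p = 0.653). Of the treated samples, 3 lay above all vehicle samples and AM6545 E lay among them. Larp1 (ENSMUSG00000037331.16), which encodes a repressor of ribosomal protein translation that mTORC1 controls, was at 84.9 ± 6.27 CPM (SD, n = 4) and 73.9 ± 4.504 CPM (SD, n = 5), for a log2 fold change of 0.20 (edgeR adjusted p = 0.653).

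All 12 genes of the autophagy and transcription branch had a greater mean after AM6545, where 48.2% of all genes did. Their log2 fold changes ran from 0.003 to 0.48, but the median was 0.06. With total counts in place of TMM 11 of the 12 had a greater mean, with the length trend removed 9 did, and without vehicle D 7 did. Ambra1 (ENSMUSG00000040506.17), which encodes an activator of the autophagy kinase complex, was at 15.7, 10.6, 15.6 and 14.1 CPM in AM6545 A, B, C and E and at 14.0, 9.48, 9.24, 8.33 and 9.40 CPM in vehicle A to E. The groups overlapped because vehicle A stood with the treated samples and AM6545 B lay near the other vehicle samples. Its log2 fold change was 0.48 (SE 0.16, edgeR unadjusted p = 0.00985, adjusted p = 0.653), the largest of the 99. Ambra1 was the 1 gene of the 12 with an unadjusted p under 0.05 by edgeR, or 8.33% against 7.21% of all genes.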

How the data were processed

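The deposited values are estimated counts per gene, not whole and not scaled between samples, and the authors made them with tools of which Salmon 1.3 and DESeq2 1.30 are named, with the builds GRCm39 and mm10 and without roles, per the submitters' processing notes. Annotation and strand setting are not given in the sources used here, so no coordinates are printed. Per the labels' protocols, libraries were made with a SMARTer Ultra Low Input kit and sequenced on a NovaSeq.

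Symbols were matched to 22155 of 22255 identifiers, and transcript lengths and overlaps were read, from GENCODE M21. Similar transcripts were found with blastn 2.17.0. Counts were rounded. Genes were kept with filterByExpr, scaled with TMM and compared with edgeR 4.0.16 (R 4.3.3, quasi-likelihood F-test, Benjamini-Hochberg over all 14512 genes, threshold 0.05). Standard errors were the absolute log2 fold change over the square root of F. The test was tried on simulated data. All sample pairs differed beyond counting noise (lowest chi-square over its degrees of freedom 10.03). Profiles used log2 CPM with a prior count of 2. Alternatives used DESeq2 1.42.0, limma 3.58.1, other scalings and filters, the letter in the title as a block, leaving out every sample in turn, and a lowess length trend (span 0.3).

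Core genes, lists and tests were chosen with earlier results of these data known. Named genes were all core genes, their relatives, Fmr1, for each core gene the nearest profile (3 for Mtor), and in each list those at an unadjusted p under 0.05 or else the smallest p, and the most abundant gene of a marker list.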

Additional observations from a re-analysis of the deposited data

Results flagged for a closer look

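For the 8 core genes and the 4 ratios, the gap between the most extreme sample of a group and its nearest neighbour was divided by the range of the group. This ratio passed Dixon's 95% critical value in 3 of 24 sets of values, and about 1.2 would pass by chance. Tsc1 stood at 18.4 CPM in AM6545 B, while AM6545 A, C and E held 14.2 to 14.8 CPM. Rheb stood at 394 CPM in vehicle C, while vehicle A, B, D and E held 285 to 307 CPM. The log2 ratio of Rheb to Mtor stood at 3.90 in vehicle C, against 3.26 to 3.41 in vehicle A, B, D and E, and rests on the same Rheb counts. Vehicle C also had the lowest sums of the astrocyte, oligodendrocyte, microglia, endothelial and choroid plexus markers of all 9 samples (3706, 10903, 682, 48.95 and 47.99 CPM) and the highest sum of the excitatory neuron and synapse markers (9900 CPM). The part of these in the Rheb value was not tested.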

How the results depend on the processing

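No core gene had an adjusted p under 0.05 in any of the 18 alternatives, and the smallest was 0.328, for Tsc2 without vehicle B. The number of core genes at an unadjusted p under 0.05, 1 with all samples, was 2 by DESeq2 (Tsc2 and Rictor), 2 by limma-voom with sample weights (Tsc2 and Mtor) and 0 with the length trend removed. It ran from 0 to 3 with each sample left out: 0 without AM6545 A, AM6545 B, vehicle A or vehicle D, 2 without vehicle E and 3 without AM6545 C or AM6545 E. Over all genes, the number past the adjusted threshold ran from 0 to 1 with a sample left out, and the 1 appeared without AM6545 A. The number at an unadjusted p under 0.05, 1047 with all samples, was 1823 with sample weights and ran from 496 without vehicle A to 1848 without AM6545 E. It was also 663, 642 and 690 without AM6545 A, B and C and 1797, 1023, 866 and 943 without vehicle B, C, D and E. By DESeq2 this number was 1121, and with the length trend removed it was 939. With the title letter as a replicate block, to which vehicle D, alone with its letter, adds nothing, 0 core genes and 758 genes in all had an unadjusted p under 0.05, the core split was 5 greater to 3 smaller, and 7 of the 12 autophagy and transcription genes had a greater mean. Of the 4 pairs of samples with the same letter, AM6545 C and vehicle C deviated together (correlation 0.34). The other same-letter pairs did not (-0.02 to 0.04), and only AM6545 C correlated best with its own letter. Pairs with different letters ran from -0.28 (AM6545 C and vehicle A) to 0.35 (AM6545 E and vehicle A). Of the 7 wider pathway genes at an unadjusted p under 0.05, 3 kept it with the block and 4 with the length trend removed. Lamtor5 and Ambra1 kept it in all 18 alternatives and Irs2 in 17, while Pik3r2 did in 15, Cyfip1 and Larp1 in 10 each and Lamtor2 in 8.

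Mtor, Rptor, Rictor, Tsc2, Rheb and Rps6kb1 kept their direction in all 18 alternatives. Tsc1 turned to a log2 fold change of -0.013 without AM6545 B and was at most 0.12, without AM6545 E. Eif4ebp2, at 0.03, was -0.0028 with the block and -0.026 with the length trend removed, and ran from -0.13 to 0.10 with a sample left out. Rps6kb2 was -0.013 with sample weights. Rhebl1 was -0.0075 with total counts and -0.0031 with the stricter filter, and ran from -0.049 to 0.10 with a sample left out. The cause of these turns was not tested. With 4 and 5 samples, the 95% intervals of the core genes reached a median of 0.25 log2 units to either side.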
